A study of Mus musculus with 15 samples.

Results

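Crosslinks of tristetraprolin (TTP) to the exons of long non-coding RNAs (lncRNAs) were examined in mouse macrophages by iCLIP, which maps protein-RNA contacts at single-nucleotide resolution. A site was counted when it lay on the sense strand in an exon of a GENCODE M21 gene of the type lincRNA, antisense, processed_transcript, sense_intronic, sense_overlapping, bidirectional_promoter_lncRNA, macro_lncRNA or TEC (a predicted gene awaiting experimental support). Sites that also lay in a 3′UTR, coding sequence or 5′UTR of a protein-coding gene were left out, as were a ribosomal RNA locus on chromosome 17 and the mitochondrial genome. The 6 deposited lists held 2226 such entries with 4602 cDNAs, at 1693 different positions in 140 of 13371 annotated lncRNA genes. All entries of the 6 lists numbered 162273 and held 388091 cDNAs.

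The cells were bone marrow-derived macrophages of TTP-deficient C57BL/6 mice that had been immortalised with the oncogenes hcmyc and hRasG12V. A tet-inducible retroviral vector supplied either GFP-TTP or GFP-TTP-AA, whose MK2 target serines were replaced with alanine. All groups received doxycycline (1 µg/ml) for 6 h, and LPS (1 µg/ml) was given for 0 h, 1 h or 4 h before crosslinking and purification with a GFP-binding nanobody. The TTP lists summed 2, 4 and 2 libraries at 0 h, 1 h and 4 h, and the TTP-AA lists summed 2, 3 and 2. Each group was thus 1 pooled list from 1 engineered cell population, no library with GFP alone was used here, and the intervals below cover counting error only. They compare pooled lists and not conditions, because no spread between replicates could be computed.

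TTP binds AU-rich elements, whose core is the pentamer AUUUA, usually in the 3′UTRs of unstable cytokine mRNAs, and it recruits the deadenylation machinery there. After LPS, MK2 phosphorylates TTP, which weakens its effect on bound mRNAs. lncRNAs have no long open reading frame and so no 3′UTR in the usual sense, but they can hold AU-rich stretches. Many of them stay in the nucleus, such as Malat1 in nuclear speckles and Neat1 in paraspeckles, and others serve mainly as hosts from which small nucleolar RNAs (snoRNAs) are cut.

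Crosslinks in lncRNA exons were uneven across genes. Malat1 alone took 1937 of the 4602 cDNAs, nearly all of them at 1 h. A further 552 cDNAs fell on small RNA genes that lie inside lncRNA exons and 520 on tRNA genes inside such exons. AUUUA lay near a smaller share of lncRNA exon sites than of 3′UTR sites in each list, and after 1 h of LPS it lay near 13.4% of the TTP-AA sites against 2.29% of those of TTP.

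The first set of sequences shows the stretches of lncRNA exons where AUUUA and crosslinks met. They were read from the GENCODE M21 transcripts (GRCm38, also named mm10), run 5′ to 3′ on the strand of the RNA, are written as DNA, and have ATTTA in capitals. For Malat1, the stretches around AUUUA copies with at least 10 cDNAs near are shown, and for the other genes the stretch holds the AUUUA-near position with most cDNAs.
Malat1, nt 207 to 236, chr19:5802437-5802466, minus strand: acatgaaggcttATTTAaacagtttgaaaa
Malat1, nt 3218 to 3247, chr19:5799426-5799455, minus strand: ttgtaacttataATTTAagaattatgataa
Malat1, nt 4189 to 4218, chr19:5798455-5798484, minus strand: catattgctaaaATTTAaatgtgctccaat
Malat1, nt 4281 to 4310, chr19:5798363-5798392, minus strand: gtATTTAgaaggctgtctccttATTTAaat
Snhg6, chr1:9942050-9942079, minus strand: aaattaatatctaATTTAatattaataagt
1110038B12Rik, chr17:34952270-34952299, minus strand: acccacATTTAcagactagagtttctgatg
Gm14636, chrX:19162868-19162897, minus strand: aagtcctttcatATTTAttttctggaactt
Map2k3os, chr11:60921053-60921082, minus strand: ttttttaatatATTTAaattttatttgttt
Gm14005, chr2:128372147-128372176, minus strand: atctattactttATTTAttggccctcccca
Zswim6, chr13:107724684-107724713, minus strand: tgatatcaatttATTTAtgtaactaaatca
All Malat1 stretches but the first held cDNAs of TTP-AA and none of TTP at 1 h, as described below.

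The second set shows strong single positions outside tRNA genes, 1 per gene, with the crosslinked nucleotide in capitals, because a few of them carried most of a gene's cDNAs. They are those among the 10 positions with most cDNAs, and Gm5602 leads the TTP-AA 4 h list.
AA474408, chr7:110059852-110059881, minus strand: aattagaataTgggtctccaaggtgaacag
Gm43332, chr5:149184133-149184162, plus strand: tgaacacgtaGggtggtggcgcgcgggccg
Gm15564, chr16:35981726-35981755, minus strand: cgtgagctggGtttagaccgtcgtgagaca
Snhg3, chr4:132352790-132352819, minus strand: tcctgtggacCatgactgaggagacaaacc
Rmrp, chr4:43492792-43492821, minus strand: gcaccaaccaCacggggctcattctcagcg
Gm5602, chr7:130866280-130866309, minus strand: atggggcggaCacggccctggaggcgcgcc
None of these 6 stretches has ATTTA within 20 nt of the crosslinked nucleotide.

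The third set shows the tRNA genes, where capitals mark GUUCGANNC, written as DNA, the T loop letters that most tRNAs share. The crosslinked position with most cDNAs is base 4 of each stretch.
B230208H11Rik, chr10:12922578-12922607, minus strand: acatatgtctgcgtggGTTCGAACCccact
Gm10616, chr7:79466452-79466481, plus strand: tcggatcagaagattgcagGTTCGAGTCct
Gm17494, chr3:122292959-122292988, minus strand: aaggcattcaaaggttccggGTTCGAGTCc
In these genes the leading position lay 13, 16 and 17 nt before the first G of the T loop letters.

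The lists held between 16588 and 154809 cDNAs outside the left-out loci, and the lncRNA exon share ran between 0.856% and 1.94% of them. A count of 0 was set at 3 cDNAs, a share of 0.0181% in the smallest of these lists and 0.00194% in the largest. The lists hold only sites that passed the peak calling of the authors, so a 0 means that no site was listed. Ratios given as "at least" are thus bounds for counting error among listed cDNAs. They do not cover cDNAs at sites that failed the peak calling. Of the macrophage markers, 8 of 8 had sense exonic cDNAs, 580 in total, whereas 0 of 4 T cell, 0 of 3 B cell, 0 of 3 fibroblast and 0 of 4 neutrophil markers had any. These counts check the sample label only, since crosslinks do not measure expression. The cells lack endogenous TTP, and per the study's methods the vector held only its coding sequence. In the TTP-AA 1 h list, its gene Zfp36 had 31 coding sequence cDNAs and 131 3′UTR cDNAs. The counts were 7 and 21 in the TTP 1 h list, 5 and 4 in the TTP 0 h list, and 0 in the other lists. Where the 3′UTR cDNAs came from was not tested. The headers of both 1 h lists carry a mark for treating regions as one that the 0 h and 4 h lists lack, so time and peak calling cannot be told apart.

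How much of the crosslinking fell on lncRNA exons was asked first. For TTP the share was 0.978% before LPS, 1.94% after 1 h and 1.53% after 4 h. For TTP-AA the same 3 times gave 1.12%, 1.44% and 0.856%. The ratio of TTP-AA over TTP was 1.15 at 0 h, with a 95% interval from 0.973 to 1.35 that includes 1. It was 0.742 at 1 h, with an interval from 0.693 to 0.794 (0.432 with each site counted once), and 0.560 at 4 h, with an interval from 0.455 to 0.686, so the TTP-AA share was lower at both times. With each site counted once, the 4 h value was 0.757 with an interval from 0.542 to 1.06 that includes 1. The 1 h direction rested on the denominator. In the TTP-AA 1 h list, 60.4% of the cDNAs were in 3′UTRs, against 13.8% in the TTP list. Counted among cDNAs outside 3′UTRs, lncRNA exons held 3.62% for TTP-AA against 2.24% for TTP after 1 h of LPS, a ratio of 1.61 with an interval from 1.51 to 1.73. The same count gave 1.23 at 0 h, with an interval from 1.04 to 1.44, and 0.568 at 4 h, with an interval from 0.462 to 0.696.

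Relative to their length, lncRNA exons were less densely crosslinked than 3′UTRs in all 6 lists. Annotated lncRNA exons span 22.7 Mb and 3′UTRs 33.1 Mb. The lncRNA length includes bases shared with 3′UTRs, coding sequences or 5′UTRs, although sites there were left out. The lncRNA exon densities are thus too low by an amount that was not computed. Scaled to 1000000 list cDNAs and to 1 Mb, lncRNA exons held 430 cDNAs and 3′UTRs 4675 in the TTP 0 h list. The gap was widest in the TTP-AA 1 h list, at 631 against 18239, and narrowest in the TTP 4 h list, at 673 against 1399. These densities follow the annotated length and not the amount of each RNA, which was not measured in these files.

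Between LPS times, the direction of the lncRNA exon share turned on Malat1. In the TTP lists it was 1.98-fold higher at 1 h than at 0 h, with an interval from 1.74 to 2.26, and the 4 h share was 0.790 of the 1 h share, with an interval from 0.695 to 0.896. In the TTP-AA lists the ratios were 1.28, with an interval from 1.14 to 1.44, and 0.596, with an interval from 0.500 to 0.707. Without Malat1, each of the 4 ratios pointed the other way, and 1 of the 4 intervals included 1. The TTP ratio of 1 h over 0 h was then 0.933, with an interval from 0.808 to 1.08, and that of 4 h over 1 h was 1.69, with an interval from 1.47 to 1.95. For TTP-AA they were 0.672, with an interval from 0.589 to 0.769, and 1.28, with an interval from 1.06 to 1.52.

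**Figure D1:**
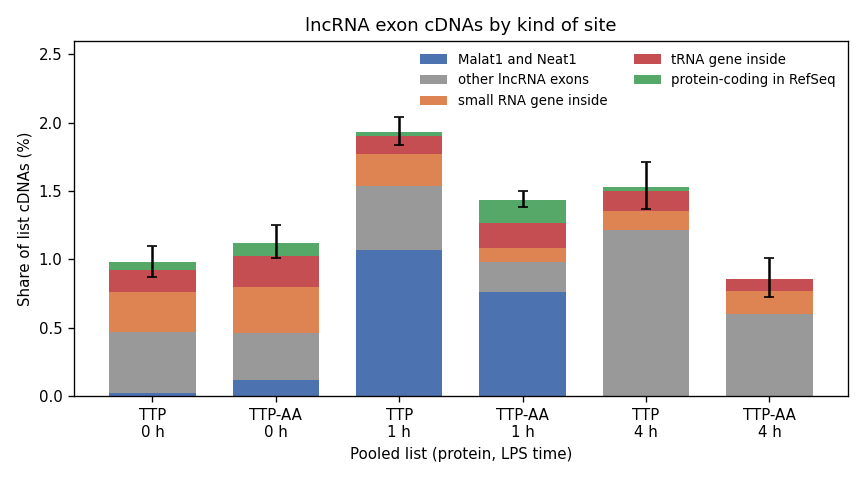
Share of list cDNAs (%, vertical axis) in lncRNA exons for the 6 pooled lists, split by kind of site, with the 95% Wilson interval of the total. Malat1 and Neat1 held 55.2% of the lncRNA exon cDNAs of the TTP 1 h list, 53.2% of the TTP-AA 1 h list and none at 4 h.

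The entries were spread thinly over genes. Of the 140 genes, 96 had cDNAs in 1 list alone, 7 had them in all 6 lists, and 108 had fewer than 10 cDNAs in all. By type, 48 lincRNA genes held 3050 cDNAs, 39 TEC genes held 559, 25 processed_transcript genes held 544, 15 antisense genes held 303, 5 bidirectional_promoter_lncRNA genes held 117, 6 sense_intronic genes held 20 and 2 sense_overlapping genes held 9. No macro_lncRNA gene had a cDNA. In 5 lists, 61.2% to 69.4% of the sites rested on 1 cDNA, and in the TTP 4 h list the share was lower. Of the 1693 positions, 1309 were in 1 list alone and 9 were in all 6.

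Symbols and sites also showed what else lies in these exons. Of 140 genes, 71 matched a RefSeq symbol. RefSeq lists 60 of those as lncRNA, 9 as protein-coding, 1 as a transcribed pseudogene and Rmrp as the RNA of RNase MRP, an enzyme that processes ribosomal RNA precursors. The 9 protein-coding genes included Cct6a, a subunit of the cytosolic chaperonin, and Ndufb1-ps, named for a subunit of respiratory complex I, and together they held 337 cDNAs. Small RNA genes took 152 positions and RefSeq tRNA genes took 49. What was left after these, Malat1 and Neat1 was 1228 cDNAs in 118 genes, called other lncRNA exons here. These kinds were chosen after the sites had been seen.

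Malat1 (ENSMUSG00000092341.3, chr19:5795690-5802672, minus strand) is an abundant RNA of nuclear speckles without introns. TTP had 3 Malat1 cDNAs before LPS, 716 after 1 h and 0 after 4 h, whereas TTP-AA had 35, 1183 and 0. Both 1 h lists stood far above the other 4. At 0 h the TTP-AA share was 11.5-fold the TTP share, with an interval from 3.62 to 58.4. In the TTP-AA lists the Malat1 share was 6.25-fold higher at 1 h than at 0 h, with an interval from 4.47 to 9.02, and at least 42.3-fold higher than at 4 h. In the TTP lists the 1 h share was 97.1-fold the 0 h share, with an interval from 33.1 to 472 that reflects the 3 cDNAs at 0 h, and at least 67.3-fold higher than at 4 h. Between proteins at 1 h, TTP-AA over TTP was 0.740 with an interval from 0.674 to 0.813, and among cDNAs outside 3′UTRs it was 1.61 with an interval from 1.47 to 1.77. That the 1 h lists alone carry the region mark bears on each comparison across time for this gene.

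Along the 6983 nt of Malat1, sites were many and shallow. At 1 h the TTP list had 454 sites of 1 to 6 cDNAs and the TTP-AA list had 690 sites of 1 to 8 cDNAs. Within 15 nt, 86.6% of the TTP sites had a TTP-AA site and 66.2% of the TTP-AA sites had a TTP site. The proteins differed in where along the RNA the cDNAs fell. Over nt 1 to 1000, TTP had 97 cDNAs and TTP-AA 120, a ratio of shares of 0.749 with an interval from 0.568 to 0.989. Between nt 1001 and 2000, TTP had 26 of its Malat1 cDNAs and TTP-AA had 5, a ratio of shares of 0.116 with an interval from 0.0349 to 0.308. Between nt 2001 and 3000, the bin with most TTP cDNAs, the counts were 231 and 232, a ratio of 0.608 with an interval from 0.504 to 0.733. All 3 of these bins were thus lower for TTP-AA, and the next 2 were higher. Between nt 3001 and 4000 the counts were 63 for TTP and 219 for TTP-AA, a ratio of 2.10 with an interval from 1.58 to 2.83. Between nt 4001 and 5000 they were 75 and 291, a ratio of 2.35 with an interval from 1.82 to 3.07. The last 2 bins, from nt 5001 and from nt 6001, had ratios of 0.850 and 0.871 with intervals that include 1.

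Part of that difference lay at AUUUA. Malat1 holds 12 copies of AUUUA, and TTP-AA sites lay within 20 nt of 6 of them at 1 h, against 2 for TTP. Around the copy at nt 4201, TTP-AA had 31 cDNAs at 1 h and TTP had 0. Around those at nt 4283 and 4303, whose windows overlap, TTP-AA had 30 and 35 cDNAs and TTP had 0. Over the 139 nt from nt 4185 to 4323, a span chosen after its values were seen, TTP-AA had 117 cDNAs and TTP had 0, which puts the TTP-AA share at least 17.5-fold higher. The copy at nt 3230 had 20 cDNAs of TTP-AA and 0 of TTP at 1 h, and it already had 9 of TTP-AA at 0 h. Both copies that TTP reached at 1 h had more TTP cDNAs than TTP-AA cDNAs, 11 and 8 at nt 219 and 1 and 0 at nt 4488.

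**Figure D2:**
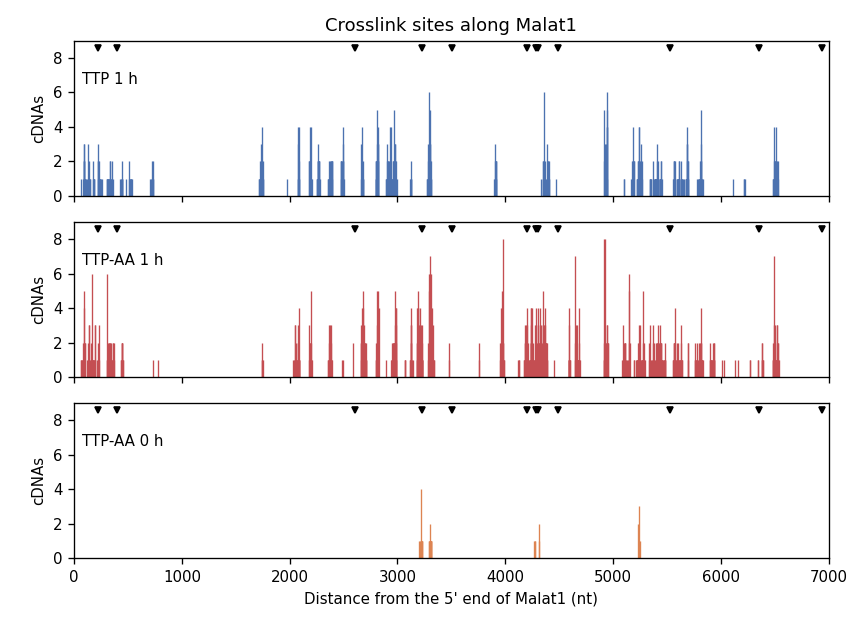
Crosslink sites along Malat1 (horizontal axis, nt from the 5′ end; vertical axis, cDNAs per site) in the TTP 1 h, TTP-AA 1 h and TTP-AA 0 h lists, with triangles at the 12 AUUUA copies. The cluster of AUUUA copies between nt 4201 and 4307 has TTP-AA sites in both TTP-AA lists and none in the TTP list.

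Neat1 (chr19:5824708-5845478, minus strand), the scaffold RNA of paraspeckles, lies near Malat1 in the genome. It had 3 cDNAs in the TTP 0 h list, 25 in the TTP 1 h list, and 0 in each of the other 4. The 1 h cDNAs lay at 23 sites of at most 2 cDNAs each. At 1 h the TTP share was at least 18.6-fold higher than the TTP-AA share. None of the Neat1 sites had AUUUA within 20 nt.

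Of the other nuclear RNAs on the list, Pvt1, which lies beside Myc, had 2 cDNAs in the TTP 1 h list, and Kcnq1ot1, Xist, Tsix, Meg3, Miat and Firre had none. Of the lncRNAs linked to macrophages, LPS or p53, 1 of 11 annotated had cDNAs. It was Gm14005, also known as Morrbid, which controls the lifespan of short-lived myeloid cells, with 5 cDNAs in the TTP-AA 1 h list and 0 elsewhere. Of its 5 positions, 4 had AUUUA within 20 nt. None of the 10 miRNA host genes had an exonic cDNA.

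Of 14 annotated snoRNA host genes, 8 had cDNAs, 166 in total. Snhg3 led, with 19 TTP cDNAs before LPS and 0 after 1 h and 4 h, beside 21, 24 and 8 of TTP-AA. Of its 13 positions, 10 lay in a snoRNA gene, and the 20 nt that start at the leading site occur in Snora73a and Snora73b. Snhg6 had 4 TTP cDNAs before LPS and 0 later, beside 11, 31 and 0 of TTP-AA. Its 22 positions fell within 49 nt, none was in a small RNA gene, and 18 had AUUUA within 20 nt. Snhg1 had 6 and 13 cDNAs at 1 h, and Gas5, a growth-arrest RNA that hosts several snoRNAs, had 8 of TTP-AA at 1 h and 5 of TTP at 4 h. All positions of both lay in snoRNA genes. Snhg12 (6 cDNAs), Snhg8 (4), Snhg17 (3) and Snhg20 (3) were rarer.

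Rmrp (ENSMUSG00000115420.1, chr4:43492783-43493063, minus strand) was the third gene by cDNAs. TTP had 48, 130 and 17 cDNAs there after 0 h, 1 h and 4 h of LPS, and TTP-AA had 42, 53 and 20. At 1 h the TTP-AA share was 0.183 of the TTP share, with an interval from 0.130 to 0.253, whereas the 0 h ratio of 0.862 and the 4 h ratio of 1.39 had intervals that include 1. The place in the RNA changed with the time. From nt 241 to 280 of Rmrp, TTP had 48 cDNAs at 0 h, none at 1 h and 17 at 4 h, and TTP-AA had 41, none and 19. At 1 h the TTP cDNAs lay at nt 41 to 80 (36), nt 121 to 160 (47) and nt 201 to 240 (46), and 51 of the 53 TTP-AA cDNAs lay at nt 201 to 240. Both proteins thus had the 3′ end site at 0 h and 4 h and lacked it at 1 h, the time of the lists with the region mark.

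The positions of 3 lncRNA genes all lay in tRNA genes, which carry amino acids to the ribosome. B230208H11Rik, whose 22 positions lie in the leucine tRNA gene n-TLtaa3, had 28, 48 and 15 TTP cDNAs in order of LPS time and 41, 181 and 10 of TTP-AA. Gm10616, with the arginine tRNA gene n-TRtcg5, had 11, 21 and 9 of TTP and 16, 63 and 0 of TTP-AA. Gm17494, with the arginine tRNA gene n-TRtct2, had 7, 20 and 4 of TTP and 9, 33 and 4 of TTP-AA. All 3 thus had most cDNAs in the deepest list. Over the 3 genes the TTP-AA over TTP ratio was 1.41 at 0 h, with an interval from 0.956 to 2.11, 1.39 at 1 h, with an interval from 1.09 to 1.79, and 0.589 at 4 h, with an interval from 0.287 to 1.16. No site of the 3 had AUUUA within 20 nt.

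Some other lncRNA exons had their cDNAs at 1 or a few positions. AA474408 (chr7:110057987-110061325, minus strand), a TEC gene, had 159 of its 183 cDNAs at the position printed above. It led the TTP 4 h list with 107 cDNAs, against 11 in the TTP-AA 4 h list, a ratio of 0.121 with an interval from 0.0587 to 0.226. At 0 h it had 32 cDNAs of TTP and 7 of TTP-AA, a ratio of 0.216 with an interval from 0.0803 to 0.497, and at 1 h it had 13 of each. Gm15564, an antisense gene, had 19, 27 and 18 TTP cDNAs in order of LPS time and 9, 25 and 7 of TTP-AA, and the 20 nt that start at its leading site also occur in the AA474408 transcript. The TEC gene Gm37194 had 17, 46 and 24 of TTP and 11, 12 and 5 of TTP-AA. Its TTP-AA share was lower at 1 h, with a ratio of 0.117 and an interval from 0.0563 to 0.224, and at 4 h, with a ratio of 0.246 and an interval from 0.0732 to 0.656. The long intergenic gene 6530403H02Rik had 43 cDNAs of TTP and 2 of TTP-AA at 4 h, 18.2-fold higher for TTP with an interval from 4.75 to 155, and at 1 h it had 19 and 6. Gm43332 had 55 and 46 cDNAs at 1 h, 86 of its 101 at 1 position, and none at 0 h or 4 h. 4632415L05Rik, the transcribed pseudogene, had 7, 35 and 11 of TTP and 0, 11 and 5 of TTP-AA. Gm5602 led the positions of the TTP-AA 4 h list with 9 cDNAs.

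Copies elsewhere bear on such positions, because a read from a copy cannot be told apart from one of the gene. For 32 genes with at least 10 cDNAs, the 20 nt that start at the leading site were searched in the transcripts of all other GENCODE genes, and 31 had a stretch of that length. Of these, 9 had an exact match, 8 of them in a small RNA gene. Those 8 genes also had positions inside small RNA genes of the same strand and place. Their match can thus be the same bases under another gene name, and this was not told apart from a copy elsewhere. Full-length ribosomal RNA was not searched here, so a match of positions such as those of AA474408, Gm15564 and Gm37194 to it was not tested. In 12 of the 32 genes, over 50% of the cDNAs lay at the leading position. Gm26691 differed from the others, since the letters GAUCGGAAG, written as RNA, which begin the adapter of Illumina libraries, followed its sites. It had 2 or 3 cDNAs in each of 5 lists, and the part of this sequence in its cDNAs was not tested.

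**Figure D3:**
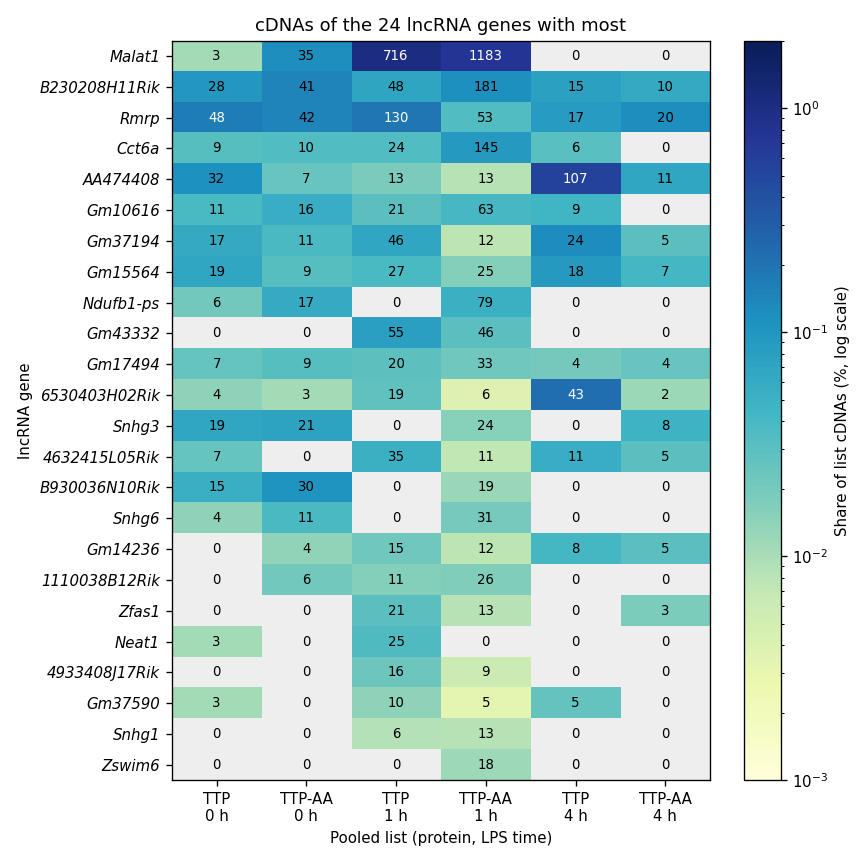
cDNAs (numbers) and share of list cDNAs (%, log colour scale) of the 24 lncRNA genes with most cDNAs, by pooled list. Malat1 dominates both 1 h lists, AA474408 leads the TTP 4 h list with 107 cDNAs, and grey cells hold 0.

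Gene by gene, TTP-AA and TTP were compared for lncRNA genes with at least 10 cDNAs over both lists of a time, which left 13 of 54 genes at 0 h, 27 of 97 at 1 h and 9 of 38 at 4 h. A gene was called when its ratio of shares was at least 2-fold and the interval excluded 1, a count of 0 being past the fold, and the same rule was run over all genes with exonic cDNAs. At 1 h, 8 lncRNA genes had a higher and 12 a lower TTP-AA share, whereas 68.8% of 2385 genes tested were higher and 5.58% lower. Of the higher genes, RefSeq lists Cct6a, Ndufb1-ps and Zswim6 as protein-coding. Snhg3, B930036N10Rik, 2900060B14Rik and AC121821.1 had most or all of their positions in small RNA genes, which left Snhg6. Among the lower genes, Rmrp and Zfas1 had most or all of theirs in small RNA genes. The median ratio was 0.739 for the lncRNA genes and 2.39 for all genes tested. Of the 27 lncRNA genes, 8 had at most 3 cDNAs in 1 of the lists. With such counts set at 3, 7 were higher, since 2900060B14Rik (13 cDNAs of TTP-AA and 0 of TTP) was then at 1.94, and 12 were lower. At 0 h, 2 were higher and 1 lower, beside 20.7% and 17.3% of 387 genes. At 4 h, 0 were higher and 3 lower, beside 30.0% and 26.0% of 100 genes. With cDNAs outside 3′UTRs as denominator, 11 lncRNA genes were higher and 5 lower at 1 h, beside 84.1% and 2.31% of all genes tested. With either denominator, the counts of protein-coding genes held their 3′UTR cDNAs, and the 3′UTR share at 1 h was 4.38-fold higher in the TTP-AA list. The percentages and the median of all genes tested are thus not a like background for the lncRNA genes. The 5 lower lncRNA genes were Neat1, Rmrp, Gm37194, 4632415L05Rik and 6530403H02Rik. With a 4-fold limit, 7 lncRNA genes were lower at 1 h, beside 3.14% of all genes, and 1 was higher at 0 h, beside 13.2%. With at least 20 cDNAs, 4 of 20 were higher at 1 h, beside 72.4% of 1368 genes.

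Genes with a higher TTP-AA share at 1 h were led by genes with 0 TTP cDNAs. Ndufb1-ps had 79 cDNAs of TTP-AA and 0 of TTP at 1 h, at least 11.8-fold higher, and 17 and 6 at 0 h, a ratio of 2.79 with an interval from 1.05 to 8.65. Snhg6 was at least 4.63-fold higher and Snhg3 at least 3.58-fold higher. B930036N10Rik, whose 17 positions all lie in a small nuclear RNA gene, had 19 and 0 cDNAs, at least 2.84-fold higher. Cct6a had 145 and 24 cDNAs, a ratio of 2.71 with an interval from 1.75 to 4.36. The median ratio of 2.39 over all genes tested at 1 h lies within the Cct6a interval.

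**Figure D4:**
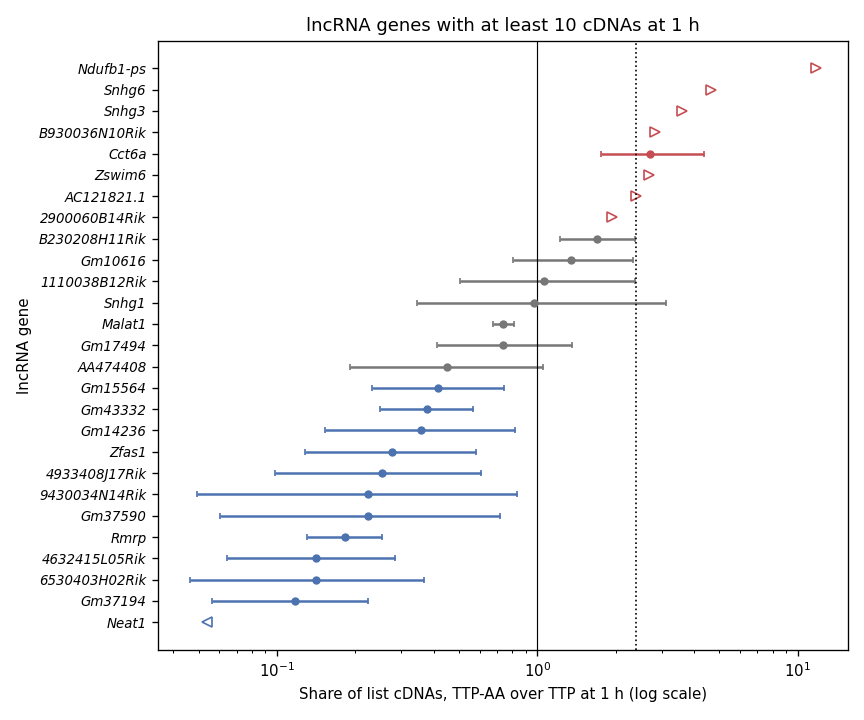
Ratio of shares of list cDNAs, TTP-AA over TTP at 1 h (log axis), for 27 lncRNA genes with at least 10 cDNAs, with 95% intervals. Open triangles are bounds set against 3 cDNAs, red and blue mark genes called higher or lower, and the dotted line is the median of 2.39 over all genes tested.

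AUUUA was then counted near each site, meaning wholly within 20 nt on the spliced transcript. For TTP it lay near 9.09% of 121 sites before LPS, 2.29% of 699 after 1 h and 5.41% of 74 after 4 h. For TTP-AA it lay near 17.2% of 163, 13.4% of 1094 and 2.67% of 75. Of all positions of the exons of the same genes, weighted by sites, between 3.59% and 5.54% had AUUUA as near. The TTP 1 h share was thus below the share of positions, 0.431 of it, and the TTP-AA 1 h share was 2.42-fold above. At 1 h, TTP-AA over TTP was 5.87, with an interval from 3.50 to 10.5, and within 50 nt it was 2.70, with an interval from 2.07 to 3.57. At 0 h the ratio was 1.89, with an interval from 0.912 to 4.21, and at 4 h 0.493, with an interval from 0.0446 to 3.44, both of which include 1. The AUUUA intervals here and below treat sites as independent. Neighbouring sites often lie near the same AUUUA copy, so these intervals are too narrow.

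In 3′UTRs AUUUA lay near 45.7%, 37.7% and 42.1% of the TTP sites in order of LPS time, and near 33.7%, 34.6% and 29.7% of the TTP-AA sites. The 3′UTR share was higher than the lncRNA exon share in all 6 lists, by 16.5-fold in the TTP 1 h list, with an interval from 10.1 to 28.9, and by 2.57-fold in the TTP-AA 1 h list, with an interval from 2.19 to 3.05. The TTP 1 h value was 5.16 within 50 nt and 10.3 without Malat1. The smallest gap was 1.96-fold in the TTP-AA 0 h list, with an interval from 1.35 to 2.96, and without tRNA and small RNA sites it was 1.40, with an interval from 0.962 to 2.11.

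The kind of lncRNA exon set much of this. No site in a small RNA or tRNA gene had AUUUA near. In Malat1 it lay near 7 of 454 TTP sites and 66 of 690 TTP-AA sites at 1 h, a ratio of shares of 6.20 with an interval from 2.85 to 16.0, and near 11 of 27 TTP-AA sites at 0 h. In the other lncRNA exons it lay near 7.69% of 117 TTP sites and 32.8% of 189 TTP-AA sites at 1 h, a ratio of 4.26 with an interval from 2.11 to 9.76. Of the positions in those exons, 4.98% and 5.01% had AUUUA near. For TTP-AA at 1 h the 3′UTR share was 1.05 times that of the other lncRNA exons, with an interval from 0.822 to 1.38, whereas for TTP it was 4.90 times, with an interval from 2.58 to 10.7. The values for the other lncRNA exons leave out kinds that were chosen after the sites had been seen.

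**Figure D5:**
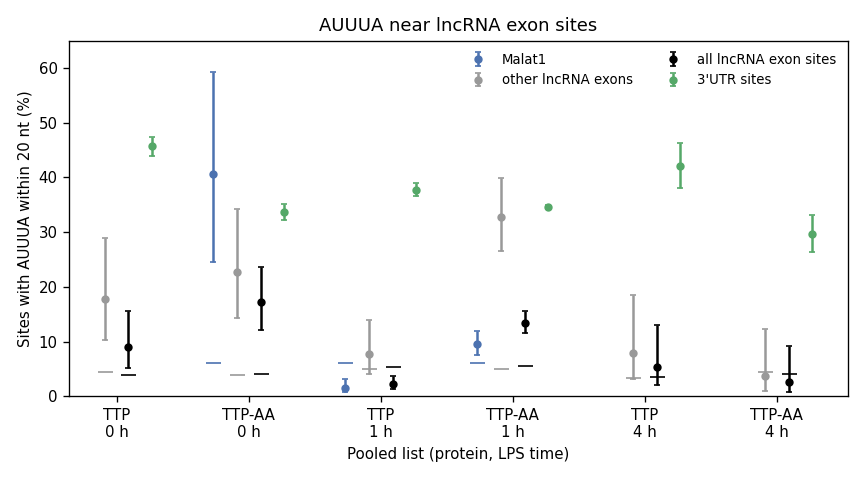
Sites with AUUUA within 20 nt (%, vertical axis) in the 6 pooled lists for Malat1, other lncRNA exons, all lncRNA exon sites and 3′UTR sites, with 95% Wilson intervals, for sets of at least 10 sites. Dashes show the share of all exon positions of the same genes, and the other lncRNA exons of the TTP-AA 1 h list reach 32.8%, near the 34.6% of its 3′UTR sites.

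Sites with AUUUA near were found in 28 genes. Leaving out Malat1, such sites were in 4 of 32 genes in the TTP 0 h list, 8 of 35 in the TTP-AA 0 h list, 3 of 45 in the TTP 1 h list, 18 of 76 in the TTP-AA 1 h list, 2 of 21 in the TTP 4 h list and 1 of 28 in the TTP-AA 4 h list. Malat1 held 12 TTP and 112 TTP-AA cDNAs at such sites at 1 h. Snhg6 had 26 TTP-AA cDNAs there at 1 h and 0 of TTP. In 1110038B12Rik TTP had 8 of them and TTP-AA had 12 after 1 h of LPS. Cct6a had 14, Zswim6 12, 2900097C17Rik 9, Gm14636 7 and the antisense gene Map2k3os 7, each in the TTP-AA 1 h list with 0 in the TTP 1 h list.

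Other pentamers were ranked at 1 h by the ratio of sites over exon positions, among those near at least 10 sites. In the other lncRNA exons AUUUA ranked 4 of 204 pentamers for TTP-AA, with 32.8% of sites, 6.54-fold above the positions. For TTP the first was CGCGA, near 8.55% of sites and 23.1-fold above the positions, followed by GCGAC and CGACC. In Malat1 the first was AACGU for both proteins, near 3.30% of TTP and 2.17% of TTP-AA sites, and AUUUA ranked 166 of 604 for TTP-AA. With 7 TTP sites in Malat1, AUUUA was again under the minimum for TTP. These ranks are descriptions, since neighbouring sites share sequence.

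Positions shared by the proteins were counted at each time. Within 15 nt, 66.1% of the TTP sites had a TTP-AA site at 0 h, 74.0% at 1 h and 62.2% at 4 h. In the other direction, 54.0% of the TTP-AA sites had a TTP site at 0 h, 56.7% at 1 h and 50.7% at 4 h. Over all sites of the lists, the TTP shares were 51.3%, 66.2% and 56.3% in order of LPS time and the TTP-AA shares 50.2%, 28.2% and 31.8%. Over 3′UTR sites they were 41.5%, 76.6% and 29.4% for TTP and 36.5%, 21.5% and 18.1% for TTP-AA. These shares move with the number of sites in the other list. Leaving out Malat1, 50.6% of the TTP and 40.3% of the TTP-AA sites were shared at 1 h. Of the genes, 15 of 33 and 36 were shared at 0 h, 26 of 46 and 77 at 1 h, and 11 of 21 and 28 at 4 h.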

How the data were processed

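Crosslinked RNA was analysed in 15 iCLIP libraries that fall into 6 groups by protein and LPS time, from the sample titles. In the deposited lists each site has a score, its count of unique cDNAs, with a minus sign for the minus strand. Per the study's methods, the authors removed PCR duplicates with random barcode bases, mapped unique reads to mm10 (Ensembl 75) with Bowtie (version not given in the sources used here), summed the libraries of a group and called peaks in iCount (flanks of 15 nt, 100 permutations), keeping sites with an FDR under 0.05. No further normalisation was applied. The left-out chromosome 17 and mitochondrial loci held 11.2% to 32.7% of the cDNAs of a list. The 4602 cDNAs in lncRNA exons limit the precision for single genes.

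Sites were assigned to GENCODE M21 exons (GRCm38) in Python 3.11.15 (scipy 1.17.1, pandas 2.3.3, numpy 2.4.6; matplotlib 3.10.9 for plots). This annotation is later than that of the authors. Sequences came from the GENCODE M21 transcripts, none of which differed in length from its exons, and tRNA genes from the RefSeq gene table of GRCm38. Shares have Wilson 95% intervals, and ratios of shares have exact conditional (Clopper-Pearson) 95% intervals. AUUUA was searched on the spliced transcript and not on the genome. A ratio against 0 cDNAs was set against 3 cDNAs per list and is given as a bound, which does not cover cDNAs at sites that failed the peak calling. Intervals do not cover losses from the short random barcodes. The interval and call rule were tested on simulated independent gene counts, without spread between libraries, peak calling or clustered sites.

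Named genes were the 10 with most cDNAs, the 3 with most in each list, up to 5 called genes per direction and time with the largest ratio (3 or fewer cDNAs set at 3), and the detected genes of fixed lists of nuclear RNAs, snoRNA hosts, miRNA hosts and macrophage lncRNAs. The strongest positions followed the same kind of rule, the 10 with most cDNAs and the first of each list. Other genes and stretches, including those shown for AUUUA, were chosen after their values were seen. The members and lists were chosen with earlier results of these data known. Alternatives changed the denominator, the weight and minimum of cDNAs per site, the fold limit, the distances and the genes or kinds of site kept.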

Additional observations from a re-analysis of the deposited data

Results flagged for a closer look

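The ratio of lncRNA exon shares, TTP-AA over TTP, differed between LPS times by a log-scale 95% interval for counting error. The 1 h ratio was 0.647 of the 0 h ratio, with an interval from 0.543 to 0.771, and 1.33 times the 4 h ratio, with an interval from 1.07 to 1.64. The 0 h ratio was 2.05 times the 4 h ratio, with an interval from 1.58 to 2.65. Among cDNAs outside 3′UTRs the first of these pointed the other way, at 1.32 with an interval from 1.11 to 1.57, and the others were 2.84, with an interval from 2.30 to 3.51, and 2.16, with an interval from 1.67 to 2.79. The 1 h lists differ from the others in the region mark of their headers, and its part in these values was not tested.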

How the results depend on the processing

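No paired analysis was possible because each group was deposited as 1 list summed over its libraries, and for the same reason no library could be left out. The lncRNA exon share, TTP-AA over TTP, kept its side of 1 and of the threshold in 20 of 27 recomputed values. With all cDNAs as denominator it was 1.20 at 0 h and 0.942 at 1 h. With each site counted once the ratio became 1.31 before LPS, 0.432 after 1 h and 0.757 after 4 h, the last with an interval that includes 1, and with sites of at least 2 cDNAs it was 0.993 at 1 h. With cDNAs outside 3′UTRs as denominator, chosen after seeing the data as were the leaving out of tRNA with small RNA sites and of genes that RefSeq lists as protein-coding and the setting of counts of 3 or fewer at 3, it was 1.23 at 0 h and reversed to 1.61 at 1 h. Between times 27 of 32 values were kept. Each site counted once moved TTP from 1.98 to 3.67 (1 h over 0 h) and from 0.790 to 0.378 (4 h over 1 h). Without tRNA and small RNA sites 1 h over 0 h was 3.00 for TTP and 2.07 for TTP-AA, and outside 3′UTRs TTP-AA had 2.56 (1 h over 0 h) and 0.251 (4 h over 1 h). Sites of at least 2 cDNAs gave 0.990 for TTP at 4 h over 1 h. Without Malat1 the values reversed to 0.933 (TTP, 1 h over 0 h), 1.69 (TTP, 4 h over 1 h), 0.672 (TTP-AA, 1 h over 0 h) and 1.28 (TTP-AA, 4 h over 1 h). The counts of called genes stayed within 1.5 times in 26 of 30 values. The exceptions were 1 higher at 0 h and 7 lower at 1 h with a 4-fold limit, 4 higher at 1 h with at least 20 cDNAs, and 5 lower at 1 h with cDNAs outside 3′UTRs as denominator. For AUUUA 51 of 54 values were kept. The 0 h ratio of TTP-AA over TTP was 1.88 within 50 nt and 2.79 with sites weighted by cDNAs, both with intervals above 1. Within 50 nt the 1 h ratio fell from 5.87 to 2.70 and the TTP 1 h ratio of 3′UTR over lncRNA exon sites from 16.5 to 5.16 (10.3 without Malat1). Weighted by cDNAs, the ratios of 3′UTR over lncRNA exon sites were 10.7 (TTP) and 2.95 (TTP-AA) at 0 h, 3.98 (TTP-AA) at 1 h, and 23.7 (TTP) and 20.2 (TTP-AA) at 4 h, and the TTP-AA 0 h ratio of 3′UTR over lncRNA exon sites was 1.40 without tRNA and small RNA sites. Of 24 shares of shared sites, 13 stayed within their interval. At the same nucleotide they were 38.8%, 39.9% and 31.1% of TTP sites and 28.8%, 25.5% and 30.7% of TTP-AA sites after 0 h, 1 h and 4 h. Within 50 nt they were 79.7% and 64.4% at 1 h. Without Malat1 they were 64.7% (TTP-AA) at 0 h, and 50.6% (TTP) and 40.3% (TTP-AA) at 1 h. The cause of these changes was not tested. Genes with fewer than 10 cDNAs over both lists of a time were not tested.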
